A study of Drosophila melanogaster with 18 samples.

Results

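A total of 138 genes known only by an annotation number (a symbol of CG followed by digits) had mean RNA levels in scrib mutant and in scrib fos double mutant eye-antennal discs of Drosophila melanogaster that were at most 0.5 times the control. They were taken from 17529 genes in the count table, of which 17425 had a symbol and 6053 a symbol of this form. Levels were expressed as CPM, the counts of a gene per 1000000 counts of its library, and were averaged over the 3 libraries of a genotype. Of the 6053 genes, 2567 reached at least 2 CPM in control, 230 of these were at most 0.5 times control in scrib, 187 in scrib fos and 138 in both. An offset of 0.1 CPM was added to each mean before the ratio. The genes were thus chosen by their levels in the control, scrib and scrib fos libraries, whose values are given as a description without a test. The fos, CtBP and CtBP scrib libraries had no part in the choice.

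The eye-antennal disc is a larval epithelium from which the eye, the antenna and much of the adult head develop. Its RNA was sequenced from larvae of the third instar reared at 25 °C. The 18 libraries fell into 6 genotypes of 3 each: the FRT82B control, scrib1 (scrib), fosKM (fos), CtBP87De-10 (CtBP), scrib1 with fosKM (scrib fos) and scrib1 with CtBP87De-10 (CtBP scrib). All 6, the control included, carried eyFLP, a recombinase driven in the eye-antennal primordium, and the mutant or control FRT82B chromosome over an FRT82B chromosome labelled cell lethal, an arrangement that removes cells left without the mutant or control chromosome. Cells were sorted, by a gate that the labels do not name, and RNA of sorts from different days was pooled into 3 samples of 180 to 330 ng per genotype. The labels give neither the age in hours nor the sex of the larvae, and nothing says that the pools of a genotype came from separate larvae, so p-values reflect no more than the spread between these samples, which may be technical.

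Scribble, the protein of scrib, is a scaffold of the basolateral membrane that keeps epithelial cells polarised, and discs without it lose their layered structure, overgrow and fail to differentiate. Loss of Scribble activates the JNK pathway, and Fos, encoded by kayak (kay), is a transcription factor of the AP-1 family that acts downstream of JNK. CtBP is a corepressor that DNA-binding repressors recruit to their target genes. In an eye disc of the third instar the morphogenetic furrow crosses the epithelium and leaves differentiating photoreceptors, cone cells and their axons behind it.

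Library totals ran from 22294940 to 35510575 counts, and 10834 genes passed the filter on low counts. In every genotype replicate 1 stood apart from the other 2 libraries, with a chi-square per degree of freedom of 25.2 to 127 against 4.2 to 17.5 between replicates 2 and 3, and replicate 1 of CtBP did so most. CtBP RNA was at 280 to 301 CPM in the CtBP libraries and 316 to 336 CPM in the CtBP scrib libraries, against 821 to 936 CPM in all others. RNA levels do not check the other alleles: scrib RNA was at 405 ± 47.5 CPM (SD, n = 3) in scrib against 491 ± 14.8 in control, and kay RNA at 105 ± 8.40 CPM in fos against 113 ± 25.3 in control. The 6 eye specification genes listed and the 8 antenna genes were above 0 in all genotypes.

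All 138 genes were annotated as protein coding, and all passed the filter on low counts, which the control level of at least 2 CPM nearly ensures. They lay on all arms in shares near those of the protein-coding genes tested: 25 on X (18.1% against 16.7%), 21 on 2L (15.2% against 17.6%), 26 on 2R (18.8% against 20.6%), 33 on 3L (23.9% against 19.6%), 31 on 3R (22.5% against 24.6%) and 2 on chromosome 4 (1.45% against 0.794%). The median length of the longest annotated protein was 535 residues, against 457 over the protein-coding genes tested and 383 over the other genes with annotation numbers at 2 CPM or more in control. Only 5 of the proteins had under 100 residues, and 21 had 1000 or more. The median level in control was 7.67 CPM, with a range from 2.09 to 393 CPM, against 24.9 CPM over those other genes with annotation numbers. Per kilobase of exon, the highest levels in control were those of CG34377 at 74.4 CPM, CG15905 at 65.5, CG15353 at 58.9, CG31676 at 45.3 and CG13928 at 37.3.

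Biochemical or family roles are stated here for a few of them. CG3961 encodes a long-chain acyl-CoA synthetase, which activates fatty acids, CG10467 an aldose 1-epimerase and CG5171 a trehalose-6-phosphate phosphatase of trehalose synthesis. CG11155 encodes a glutamate receptor subunit of the kainate type, CG31676 and CG6329 small membrane-anchored proteins of the Ly6 family, and CG12605 a zinc finger protein of the Scratch family, whose best-known member is a pan-neural factor. CG31140 is a diacylglycerol kinase and CG15117 a beta-glucuronidase. No role is stated here for the others, which does not mean that none is known.

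In the libraries that chose the genes, the summed level of the 138 genes was 2450, 2378 and 2352 CPM in control replicates 1 to 3, 510, 507 and 488 CPM in scrib and 797, 759 and 651 CPM in scrib fos. The median ratio to control was 0.250 in scrib, with quartiles of 0.157 and 0.344, and 0.324 in scrib fos, with quartiles of 0.240 and 0.409. By construction no gene was above 0.5, and the smallest ratios were 0.0464 in scrib and 0.0512 in scrib fos. The scrib libraries were all below all control libraries for all 138 genes (against 36.5% of all genes tested), and the scrib fos libraries for 135 (97.8%, against 32.2%). These are values on which the genes were chosen. The exceptions were CG15353, CG11370 and CG15919, whose control libraries spread widely: CG15353 was at 22.7, 7.86 and 31.3 CPM in control. In bulk RNA, fewer cells of a type and less RNA per cell cannot be told apart.

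Although both scrib genotypes were low by the choice of genes, the remaining levels were mostly higher in scrib fos than in scrib. The ratio of scrib fos to scrib had a median of 1.30 and ran from 0.16 to 6.24, with 111 genes at or above 1 and 27 below. Over all genes tested the median was 1.03, and 4689 of 10834 were below 1. The scrib fos libraries were all above those of scrib for 61 genes (44.2%, against 25.2%) and all below for 13 (9.42%, against 19.8%). CG15905 was at 27.9, 26.7 and 23.4 CPM in scrib fos and at 4.37, 4.09 and 3.79 CPM in scrib, against 72.5, 65.0 and 56.3 CPM in control. Its scrib fos libraries thus lay between those of scrib and control, with no overlap on either side. In the opposite direction, CG43124 held 1 count in each scrib fos library, 0.0282 to 0.0383 CPM, against 0.687 to 0.818 CPM in scrib and 2.08 to 2.92 CPM in control. CG4950 was at 0.678, 1.19 and 0.535 CPM in scrib fos, 5.66, 4.20 and 6.39 CPM in scrib and 13.6, 11.2 and 10.5 CPM in control. The third gene of this kind, CG42807, had means of 0.436 ± 0.135 CPM in scrib fos and 1.47 ± 0.209 CPM in scrib (SD, n = 3). Blood cell markers other than crq moved the same way between these genotypes. Hml had means of 24.7 CPM in scrib and 2.74 CPM in scrib fos, and NimC1 9.76 and 0.699 CPM. The summed level of the 9 markers was 84.0 to 106 CPM in scrib fos and 205 to 250 CPM in scrib. Most of it in scrib fos was crq, with means of 80.5 CPM there and 87.6 CPM in scrib. The part of blood cells in the levels of these genes was not tested.

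The lowest levels in scrib relative to control were those of CG5217, CG15905, CG2269 and CG34244. CG5217 was at 3.21, 4.14 and 3.62 CPM in control and at 0.110, 0.0382 and 0.0744 CPM in scrib, and its scrib fos mean was 0.391 ± 0.0707 CPM (SD, n = 3). At the limit of the choice, CG13284, CG34353 and CG3788 were just inside with a larger ratio of 0.496, 0.496 and 0.498, and CG42237, CG5065 and CG34106 just outside with 0.502, 0.502 and 0.505. CG34106 and CG5065 missed it through scrib fos alone, with scrib ratios of 0.268 and 0.249.

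**Figure D1:**
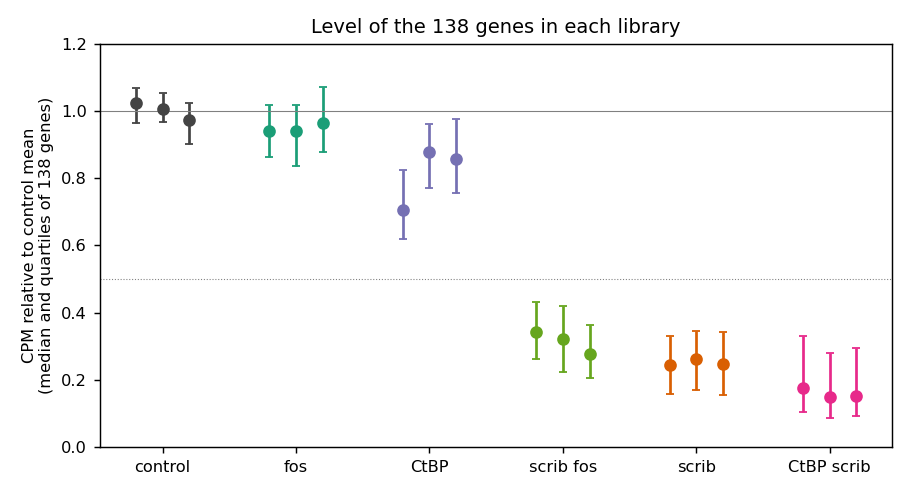
Median (point) and quartiles (bars) over the 138 genes of the level relative to the control mean, for each library of the 6 genotypes, with the control level and 0.5 times it drawn as lines. The scrib, scrib fos and CtBP scrib libraries lie below the others, and replicate 1 of CtBP, with a median of 0.706, lies below replicates 2 and 3 at 0.878 and 0.858.

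The fos mutant was not used to choose the genes. The median ratio to control was 0.956, with quartiles of 0.884 and 1.02, beside 0.980 over all genes tested, and 115 of the 138 lay between 0.8 and 1.25 (83.3%, against 89.7% of all genes tested). The libraries of fos and control overlapped for 101 genes (73.2%, against 83.1%). They were apart with fos lower for 31 genes (22.5%, against 13.3% of all genes tested) and with fos higher for 6 (4.35%, against 3.64%). The summed level was 2215, 2261 and 2354 CPM in fos. Because the control libraries were used in the choice, these ratios are given without a test.

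A total of 4 genes were at most 0.5 times control in fos, beside 0.877% of all genes tested. CG43124 was at 0.737, 1.05 and 1.40 CPM in fos against 2.08, 2.52 and 2.92 CPM in control, with no overlap. CG15353 was at 8.34, 10.4 and 8.34 CPM and CG11370 at 7.29, 6.43 and 5.69 CPM in fos, but the control libraries of CG11370 ran from 7.34 to 22.8 CPM and those of CG15353 from 7.86 to 31.3 CPM. The fourth, CG8910, was named after its values were seen, and was at 3.72, 3.77 and 4.21 CPM in fos against 9.06, 8.62 and 6.80 CPM in control. Highest relative to control in fos were CG32055, with means of 6.48 ± 1.44 CPM in fos and 4.59 ± 0.568 CPM in control, CG4168, with 10.3 ± 1.69 and 7.63 ± 0.589 CPM, and CG32206, with 6.48 ± 0.492 and 4.89 ± 0.346 CPM (SD, n = 3).

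In the CtBP mutant the genes as a group were slightly lower than in control. The median ratio was 0.818, with quartiles of 0.734 and 0.919, beside 0.972 over all genes tested, and the summed level was 1786, 2119 and 2115 CPM. The CtBP libraries were all below all control libraries for 69 genes (50.0%, against 21.1% of all genes tested), all above for 6 (4.35%, against 10.2%) and overlapped for 63. The lower sum and the lower median of replicate 1 go with its place apart from the other libraries, and its part in these counts was not tested.

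Ratios to control of single genes ran from 0.306 to 19.8 in CtBP, beside 0.44 to 1.40 in fos. CG13840 was at 37.9, 44.9 and 49.9 CPM in CtBP against 1.69, 1.88 and 2.85 CPM in control, a ratio of 19.8, and at 2.68, 2.85 and 2.84 CPM in fos. Its level in CtBP thus exceeded that of every library of the other genotypes. CG11382 was at 51.9, 59.8 and 59.4 CPM in CtBP against 20.0, 21.9 and 24.9 CPM in control. CG11498 and CG14511 were also above control, with means of 19.6 ± 2.26 against 9.52 ± 1.41 CPM and 19.9 ± 0.922 against 9.76 ± 0.532 CPM (SD, n = 3). These 4 were the genes at 2 times control or more, beside 1.05% of all genes tested. Next came CG4467, above 1.5 times, with 7.32 ± 0.778 against 4.42 ± 0.161 CPM.

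At the other end, 6 genes were at most 0.5 times control in CtBP (4.35%, against 2.33%). CG32055 was at 1.15, 1.58 and 1.27 CPM in CtBP against 5.11, 4.67 and 3.98 CPM in control. CG42458 was at 3.82, 5.07 and 4.61 CPM against 11.1, 11.1 and 11.8 CPM. CG15080 was at 1.22, 0.937 and 1.51 CPM against 2.54, 3.12 and 4.42 CPM. CG34244, CG11584 and CG15905 had ratios of 0.471, 0.487 and 0.493.

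**Figure D2:**
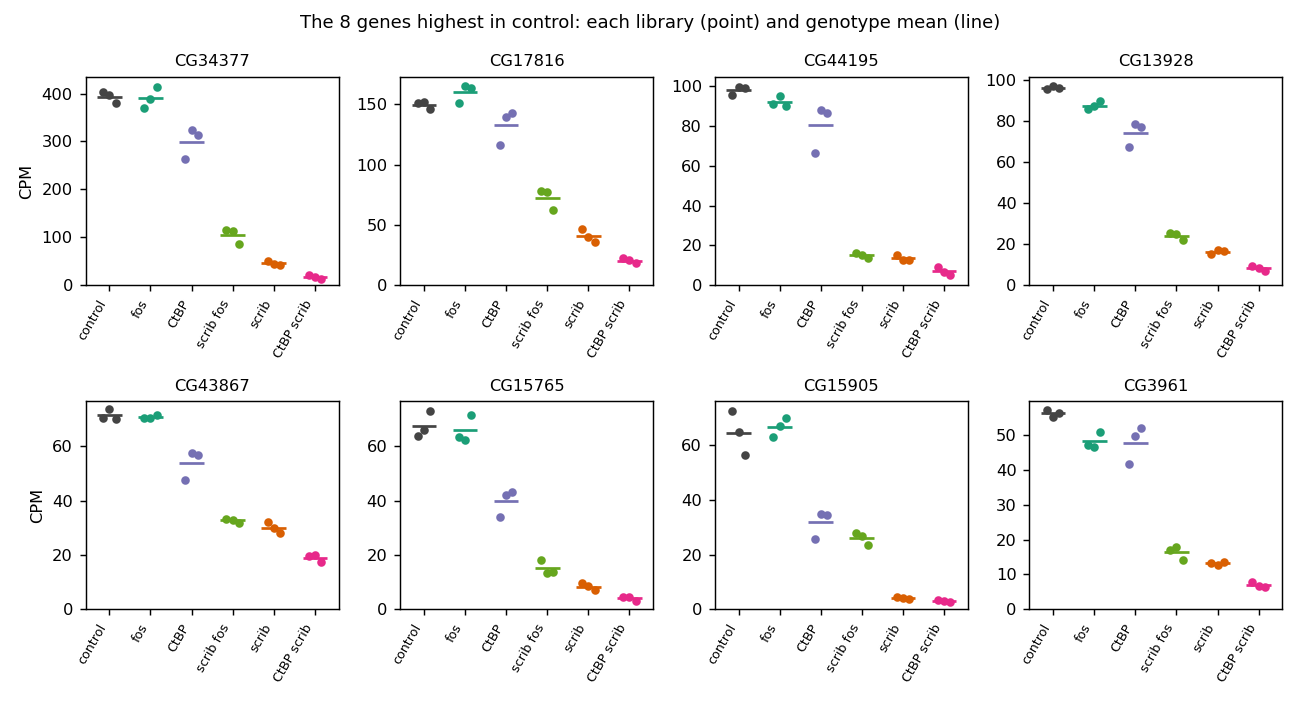
CPM in each of the 18 libraries (points) and the mean of each genotype (line) for the 8 genes with the highest control level. For all 8 the means of the 3 genotypes with scrib1 lie below those of the 3 without it, and that of CtBP scrib is lowest, while for CG15905 CtBP replicate 1 at 25.8 CPM lies below 2 scrib fos libraries.

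CtBP scrib and CtBP differ by scrib1 in a shared CtBP mutant background, and the libraries of neither had a part in the choice of genes. The spread behind the p-values was estimated over all 18 libraries, those that chose the genes included. Of the 138 genes, 131 were lower in CtBP scrib and none higher at an edgeR adjusted p below 0.05, taken over all 10834 genes tested. This was 94.9% of them, against 26.6% of all genes tested called lower and 28.9% called higher, and against 23.9% lower and 30.2% higher among 2429 other genes with annotation numbers at 2 CPM or more in control. Those others are what remained after the 138 genes were taken out, so here and below part of their lower share is built in. The median log2 fold change was -2.34, with quartiles of -3.25 and -1.43, against 0.00 over all genes tested. Among the genes called, the fall was at least 2-fold for 119 (11.5% of all genes tested) and at least 4-fold for 83 (60.1%, against 6.04%). No gene called rose by at least 2-fold (4.71% of all genes tested), while CG5171 rose by 1.16 on the log2 scale but was not called. At an unadjusted p below 0.05, 132 were lower and 1 was higher, and DESeq2 called 130 lower and 0 higher. The summed level was 388, 342 and 328 CPM in CtBP scrib.

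The genes with the highest control levels all fell. CG34377, at 3R:22308663-22324094 (dm6, minus strand), was at 263, 323 and 313 CPM in CtBP and at 19.9, 16.9 and 11.8 CPM in CtBP scrib, with 404, 397 and 380 CPM in control. The log2 fold change was -4.11 ± 0.17 (SE; adjusted p = 4.18e-11), and an antisense RNA gene is annotated across it on the other strand. CG44195, on 3L, was at 66.6, 88.1 and 86.6 CPM in CtBP and 8.89, 6.43 and 5.07 CPM in CtBP scrib, a log2 fold change of -3.45 ± 0.15 (adjusted p = 3.29e-11). CG13928, also on 3L, fell by 3.10 on the log2 scale from 74.5 ± 6.26 to 8.09 ± 1.26 CPM, and CG15765, on X, fell by 3.16 from 39.7 ± 4.97 to 4.12 ± 0.888 CPM (SD, n = 3). CG3961, the acyl-CoA synthetase, was at 41.8, 49.8 and 51.8 CPM in CtBP and 7.79, 6.69 and 6.37 CPM in CtBP scrib, a log2 fold change of -2.68. CG17816 and CG15905 had log2 fold changes of -2.62 and -3.30, while CG43867 had the smallest fall of the 8, with a log2 fold change of -1.42 ± 0.06 (SE; adjusted p = 1.03e-13).

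Among genes with a mean of at least 2 CPM in either genotype and no overlap between their libraries, the largest falls were those of CG13840, CG15919, CG4666, CG31676, CG14669, CG34377, CG4168 and CG14400. CG13840 was at 37.9, 44.9 and 49.9 CPM in CtBP, and its 3 CtBP scrib libraries at 0.0345, 0.0367 and 0.0897 CPM held 4 counts in all. Its log2 fold change was -9.56 ± 0.25 (SE; adjusted p = 6.96e-17), a value that at so few counts depends on the prior count of the fit. The gene that stood highest above control in CtBP was thus nearly absent in CtBP scrib, at a level close to its scrib mean of 0.0864 ± 0.0843 CPM (SD, n = 3). CG15919 fell with a log2 fold change of -5.55 ± 1.07 (SE; adjusted p = 0.000581), but its CtBP libraries ran from 2.04 to 5.96 CPM, and 2 of the 3 CtBP scrib libraries held no count and the third 5. CG34244, below that level in both genotypes, had a log2 fold change of -4.73 ± 0.39 (adjusted p = 2.00e-09), from 1.91 ± 0.258 CPM in CtBP to 5 counts in all in CtBP scrib.

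CG31676, of the Ly6 family, lies on 2L at 2L:20840750-20849182. It was at 47.0, 54.3 and 50.0 CPM in CtBP, close to its control level of 51.3, 51.6 and 47.5 CPM, and at 2.86, 2.24 and 2.47 CPM in CtBP scrib. The log2 fold change was -4.23 ± 0.12 (SE; adjusted p = 2.43e-16). CG14400, the next of the 138 genes along the arm, with 7805 bp between them, fell by 4.08 on the log2 scale from 20.1 ± 1.39 to 1.09 ± 0.367 CPM (SD, n = 3). CG4666 fell by 4.35 from 3.39 ± 0.396 to 0.146 ± 0.112 CPM, CG14669 fell by 4.19 from 3.28 ± 0.311 to 0.160 ± 0.151 CPM and CG4168 fell by 4.10 from 7.30 ± 0.510 to 0.401 ± 0.0835 CPM.

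Some genes with a stated role were looked up after their values were seen. CG6329, also of the Ly6 family, was at 17.3, 19.8 and 19.8 CPM in CtBP and 1.14, 1.03 and 1.39 CPM in CtBP scrib, a log2 fold change of -3.92 ± 0.13 (SE; adjusted p = 1.58e-15). CG12605, of the Scratch family, was at 7.40, 8.98 and 9.70 CPM in CtBP and 0.931, 0.367 and 0.763 CPM in CtBP scrib, a log2 fold change of -3.56 ± 0.23 (adjusted p = 2.86e-11). The diacylglycerol kinase CG31140 fell by 1.85 and the beta-glucuronidase CG15117 fell by 1.36 on the log2 scale. The aldose epimerase CG10467 showed a smaller fall, from 20.1, 25.4 and 26.6 CPM to 14.7, 14.3 and 15.6 CPM, with a log2 fold change of -0.60 ± 0.10 (SE; adjusted p = 4.00e-05). Its scrib, scrib fos and CtBP scrib means were all 14.9 CPM, with SDs of 1.19, 1.67 and 0.687.

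The kainate-type receptor gene CG11155 was at 26.6, 31.0 and 32.2 CPM in CtBP and 15.4, 12.6 and 15.4 CPM in CtBP scrib, a log2 fold change of -0.96 ± 0.14 (SE; adjusted p = 2.88e-05). Its CtBP scrib mean was not below that of scrib, where it had 11.9 ± 2.14 CPM (SD, n = 3). CG11155 and CG32017, both on chromosome 4, overlap each other on opposite strands from 1137830 to 1137919. Since the strand setting of the counting is not given, reads in that stretch cannot be assigned to either, and CG32017 fell by 1.06 on the log2 scale.

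**Figure D3:**
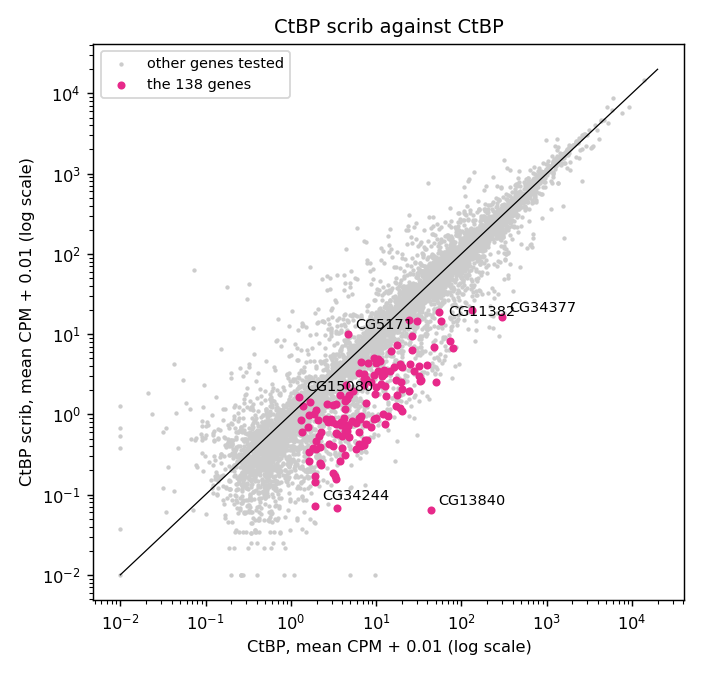
Mean CPM plus 0.01 of each gene tested in CtBP (horizontal, log scale) and in CtBP scrib (vertical, log scale), with the 138 genes in colour, the other genes in grey and the line of equal level drawn. All but CG5171 and CG15080 of the 138 lie below the line, CG13840 farthest.

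The 7 genes not called in this comparison were CG15353, CG11370, CG5171, CG15080, CG11475, CG43124 and CG6788. CG15353 was the only one of them with a mean of at least 5 CPM in both genotypes: 26.1, 13.0 and 13.0 CPM in CtBP and 7.10, 6.65 and 7.94 CPM in CtBP scrib, with a log2 fold change of -1.20 ± 0.54 (SE; adjusted p = 0.0779). Its libraries did not overlap, but those of CtBP spread over a wide range. CG5171, the trehalose-6-phosphate phosphatase, was at 3.72, 8.14 and 2.19 CPM in CtBP and 13.4, 9.74 and 6.59 CPM in CtBP scrib, and its log2 fold change of 1.16 ± 0.61 had an adjusted p of 0.129. CG5171 was the gene highest in CtBP scrib among all 6 genotypes, where it had 9.91 ± 3.41 CPM against 8.60 ± 2.32 CPM in control and 2.51 ± 0.826 CPM in scrib (SD, n = 3). Without CtBP replicate 2 the difference of CG5171 had an adjusted p of 0.0496, and that of CG15080, at 0.55 ± 0.25 (SE; adjusted p = 0.0700), one of 0.0388 without CtBP replicate 3 and 0.0389 without CtBP scrib replicate 2. CG11475, CG43124 and CG6788 had log2 fold changes of -0.06, -0.53 and -0.16, with CtBP means of 1.37, 1.31 and 1.66 CPM.

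Against the fos mutant, 130 of the 138 genes were lower in CtBP scrib and none higher by edgeR, beside 28.8% of all genes tested called lower and 32.0% called higher. The other genes with annotation numbers at 2 CPM or more in control were called lower in 25.2% and higher in 34.2% of cases. DESeq2 and an unadjusted p below 0.05 in edgeR each gave 130 lower and 0 higher. The median log2 fold change was -2.54, against 0.00 over all genes tested, and 123 genes fell at least 2-fold (12.6% of all genes tested) while none rose by as much (5.36%). This comparison shares the CtBP scrib libraries with the one against CtBP. CG34244 was at 4.27, 4.83 and 5.73 CPM in fos and at 0.0689, 0.0735 and 0.0449 CPM in CtBP scrib, where it held 5 counts in all, and its log2 fold change was -6.08 ± 0.35 (SE; adjusted p = 4.92e-12). CG13840, CG15919 and CG4168 had log2 fold changes of -5.55, -5.24 and -4.58 against fos, the first 2 of them also from few counts in CtBP scrib.

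Between the fos and CtBP mutants, neither of which carries scrib1, most of the genes were not called. By edgeR 29 were higher in fos (21.0%, against 7.13% of all genes tested) and 6 lower (4.35%, against 8.66%). The other 103 were not called, against 9124 of the 10834 genes tested. Of the other genes with annotation numbers, 7.86% were higher and 10.4% lower. The median log2 fold change was 0.21, against -0.01 over all genes tested, and 5 genes were higher (1.62% of all genes tested) and 4 lower (1.16%) in fos by at least 2-fold. The count of genes higher in fos rested on single libraries: it was 15 without CtBP replicate 1, 19 without fos replicate 3 and 15 without replicate 1 of every genotype.

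Higher in fos by the largest margins were CG32055, CG42458, CG34244, CG11584, CG15905 and CG13737. CG32055 was at 5.12, 6.33 and 7.99 CPM in fos and 1.15, 1.58 and 1.27 CPM in CtBP, a log2 fold change of 2.25 ± 0.20 (SE; adjusted p = 5.58e-08). CG42458 was at 11.6, 11.2 and 12.2 CPM in fos and 3.82, 5.07 and 4.61 CPM in CtBP, with 1.35 ± 0.14 (adjusted p = 5.41e-07). CG34244, CG11584, CG15905 and CG13737 had log2 fold changes of 1.35, 1.28, 1.05 and 0.85. For all 6 the fos mean was above the control mean.

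Lower in fos than in CtBP were CG13840, CG11382, CG14511, CG11498, CG4467 and CG3788. CG13840 had a log2 fold change of -4.00 ± 0.14 (SE; adjusted p = 2.11e-14), and CG11382 one of -1.36 ± 0.08 (adjusted p = 2.52e-10). CG14511, CG11498, CG4467 and CG3788 had log2 fold changes of -1.15, -1.09, -0.61 and -0.40. For CG3788 the fos libraries at 19.9, 21.1 and 19.4 CPM were also below the control libraries at 25.1, 27.9 and 31.7 CPM, whereas the CtBP libraries at 27.9, 26.3 and 24.1 CPM overlapped control.

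**Figure D4:**
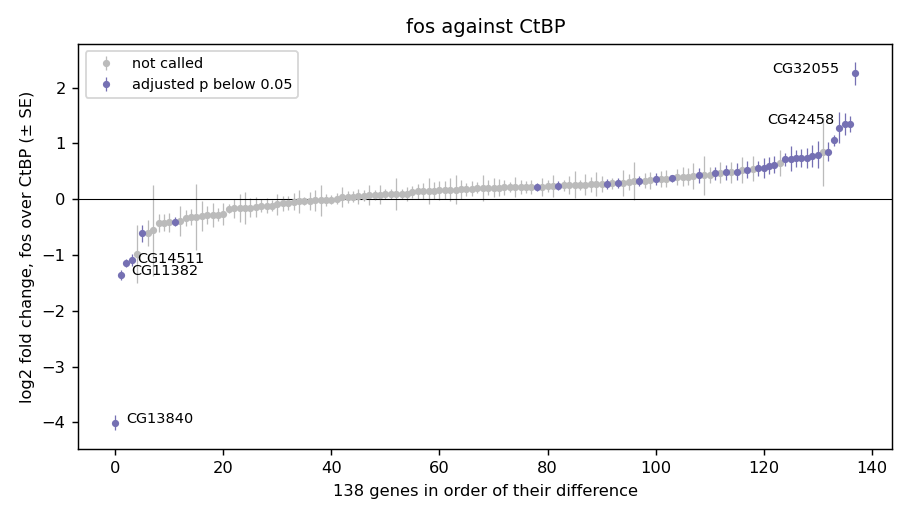
Log2 fold change of fos over CtBP (vertical, with its standard error) of the 138 genes in order of its size (horizontal), with the 29 higher and 6 lower genes in colour. The genes run from CG13840 at -4.00 to CG32055 at 2.25.

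Across the 6 genotypes, the mean was lowest in CtBP scrib for 109 of the 138 genes (79.0%, against 39.1% of all genes tested), in scrib for 15, in scrib fos for 13 and in CtBP for 1. It was highest in control for 77, in fos for 41, in CtBP for 19 and in CtBP scrib for 1. The ratio of CtBP scrib to control had a median of 0.168, with quartiles of 0.0974 and 0.303, and 133 genes were at most 0.5 times control (96.4%, against 13.8%). The means of CtBP scrib, scrib and scrib fos stood in that order, from low to high, for 95 genes (68.8%, against 41.1%), and for 134 all 3 genotypes with scrib1 were below all 3 without it (97.1%, against 27.8%). For 120 genes all 9 libraries with scrib1 were below all 9 others (87.0%, against 11.0%). These counts include the control, scrib and scrib fos libraries on which the genes were chosen, so much of the separation is built in and the counts are a description.

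CG11382 departed from that order: it was at 15.1, 14.7 and 13.5 CPM in CtBP scrib, 3.20, 3.02 and 2.27 CPM in scrib and 7.46, 7.63 and 7.86 CPM in scrib fos. Among the genotypes with scrib1 it was thus highest in CtBP scrib, as it was highest in CtBP among those without. CG14511 and CG11498, also above control in CtBP, did not do so, with CtBP scrib means of 3.88 ± 0.371 and 2.54 ± 0.256 CPM against 4.05 ± 0.318 and 3.03 ± 0.307 CPM in scrib (SD, n = 3).

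The 27 genes lower in scrib fos than in scrib had a smaller fall between CtBP and CtBP scrib, with a median log2 fold change of -1.47, than the 111 others at -2.58, and 26 of the 27 and 105 of the 111 were called lower. This split was made on libraries that chose the genes, and the difference was not tested. CG4950 fell with a log2 fold change of -0.78 ± 0.28 (SE; adjusted p = 0.0264) and CG42807 with -0.99 ± 0.31 (adjusted p = 0.0122).

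**Figure D5:**
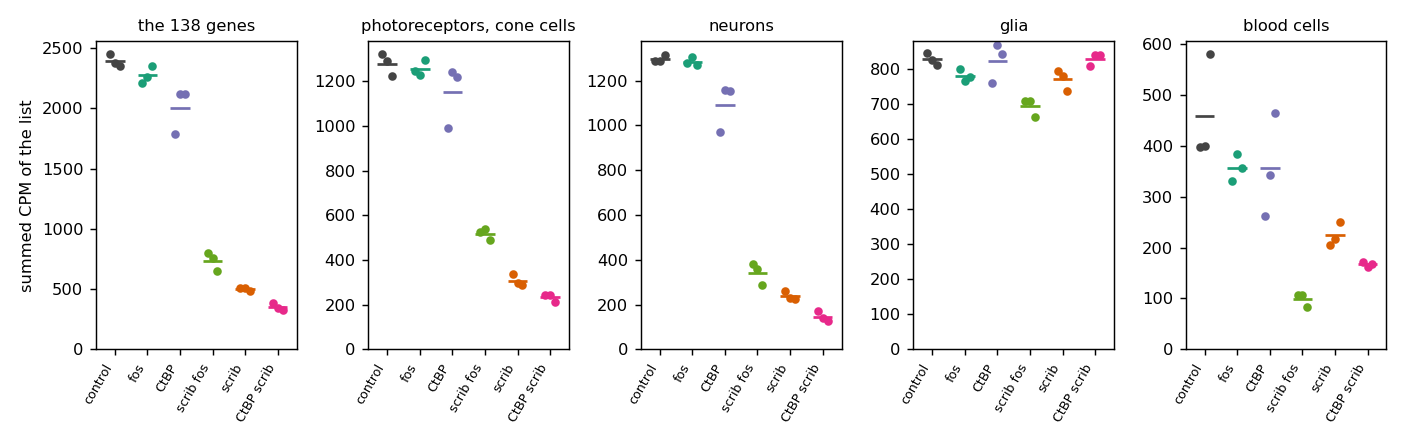
Summed CPM in each library of the 138 genes and of marker lists for photoreceptors and cone cells, neurons, glia and blood cells, by genotype (points, libraries; lines, means). The 138 genes, photoreceptor and neuronal markers are lowest in CtBP scrib, and blood cell markers in scrib fos, where crq makes up most of the sum. Glial markers, with Gli and nrv2 as most of the sum, ran from 662 to 869 CPM over all libraries.

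Markers of differentiating cells fell in the same libraries, and eye specification genes did so in some of them. In CtBP scrib against CtBP, all 15 photoreceptor and cone cell genes, all 12 neuronal genes and all 6 eye specification genes were lower, with median log2 fold changes of -2.52, -2.93 and -1.60, beside -2.34 for the 138 genes. The summed photoreceptor and cone cell level was 1223 to 1323 CPM in control, 1229 to 1294 in fos, 992 to 1240 in CtBP, 488 to 540 in scrib fos, 287 to 339 in scrib and 210 to 245 in CtBP scrib. The neuronal sum was 1287 to 1316 CPM in control, 1269 to 1304 in fos, 969 to 1156 in CtBP, 287 to 381 in scrib fos, 224 to 261 in scrib and 128 to 169 in CtBP scrib. The eye specification sum was 1416 to 1506 CPM in control, 1415 to 1587 in scrib fos, 758 to 901 in scrib and 297 to 389 in CtBP scrib. Of that list ey, toy and Optix had higher means in scrib fos than in control, and so, eya and dac lower ones. The 138 genes were ordered over the genotypes like the photoreceptor and neuronal lists, and no marker of either was at 0 in any genotype. The antenna list stood in much the same order. Its sums were 290 to 324 CPM in CtBP scrib, 381 to 422 in scrib and 557 to 570 in scrib fos. They were 669 to 768 CPM in CtBP, 729 to 750 in control and 743 to 757 in fos. Of all genes tested, 41.1% also had means rising from CtBP scrib over scrib to scrib fos. The part of any of these cell types in the levels of the 138 genes was not tested. In fos against CtBP 5 of the 15 photoreceptor and cone cell genes were higher and 1 lower, and of the 12 neuronal genes none was higher and 1 lower. Of all genes tested 7.13% were called higher and 8.66% lower. The median log2 fold changes of the 2 lists were 0.20 and 0.24, beside 0.21 for the 138 genes and -0.01 over all genes tested.

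Of the other lists, 7 of 8 antenna genes were lower in CtBP scrib than in CtBP and 1 higher, and 6 of 9 blood cell genes were lower and none higher. Of 7 glial genes 3 were lower and 3 higher. The lower ones were repo, gcm and loco, with log2 fold changes of -2.67, -2.58 and -0.54. The higher ones were moody, nrv2 and wrapper, with 1.54, 0.50 and 0.72. The glial sum was 808 to 841 CPM in CtBP scrib and 760 to 869 CPM in CtBP. It came mostly from Gli and nrv2, with means of 424 and 217 CPM in CtBP, against 18.8 CPM for repo. Of 9 myoblast and muscle genes 2 were lower and 4 higher, of 6 fat body genes 1 was lower, of 4 tracheal genes 2 were higher, and no change was called for 4 salivary gland genes. Fat body and salivary gland markers summed to at most 46.6 and 5.78 CPM in any library, and Lsp1gamma of the fat body list was at 0 in control, scrib and CtBP scrib.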

How the data were processed

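The deposited values are whole-number counts of reads per gene, which the authors made with the tools Subread, featureCounts and edgeR on dm6, per the submitters' processing notes. Not given in the sources used here were their versions, the annotation and the strand setting. Of the 138 genes, 57 overlap a gene on the other strand and 19 one on the same strand. Overlap was taken over whole gene spans, introns included, so not every overlap need share reads. Reads that are shared could not be told apart. In CtBP scrib against CtBP, 63 of the 65 genes that overlap any gene and 68 of the 73 that overlap none were called lower. Positions come from Ensembl release 115.

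The test was edgeR 4.0.16 in R 4.3.3: filterByExpr by genotype (10834 genes kept, 6695 removed), TMM factors, and a robust quasi-likelihood fit over all 18 libraries (12 residual degrees of freedom; coefficient of biological variation of 8.88%), 2-sided, with Benjamini-Hochberg adjustment over all genes. Printed levels are CPM on library sums. The pipeline was also run on simulated data for CtBP scrib against CtBP. It recovered 79.1% of genes changed 1.5-fold, 98.5% of those changed 2-fold and 100% of those changed 4-fold, and 4.64% of 194 calls were false. Far fewer genes changed there than were called in these data (2887 lower and 3127 higher). It therefore does not test the scaling under so many changes.

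The genes, marker lists and tests were chosen with earlier results of these data known. Named genes were the 8 highest in control, the largest called changes without overlap between libraries and with a mean of at least 2 CPM in 1 of the groups in the 3 tested comparisons, those uncalled at 5 CPM or more, the extremes of the ratios to control and those at the threshold. Alternatives included DESeq2 1.42.0, other scalings and filters, a replicate block and leaving out each library.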

Additional observations from a re-analysis of the deposited data

How the results depend on the processing

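No named gene reversed its direction under any setting tried, and scaling moved the median of all genes by less than 0.1 on the log2 scale. Leaving out 1 library at a time gave 127 to 130 genes lower and 0 to 1 higher in CtBP scrib against CtBP, 129 to 131 lower and 0 higher in CtBP scrib against fos, and 15 to 28 higher and 5 to 7 lower in fos against CtBP. In fos against CtBP, the count of genes higher was 5 at 2-fold or more and 15 without replicate 1 of every genotype, a setting chosen after seeing the data. With 5 CPM required in 3 libraries 93 of the genes were tested, of which 90 were lower in CtBP scrib against CtBP. The number of genes chosen was 89 with a control level of at least 5 CPM, 91 at a ratio of 0.4, 106 with an offset of 1 CPM, 129 with TMM-scaled levels, 145 with medians and 133 to 149 without 1 library.

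With the replicate number as a block, 131 genes were lower and 0 higher in CtBP scrib against CtBP, 130 and 0 in CtBP scrib against fos, and 30 were higher and 7 lower in fos against CtBP. Deviations of same-numbered libraries correlated at 0.158, 0.00568 and 0.114 between CtBP scrib and CtBP. Between CtBP scrib and fos they did so at 0.0551, 0.077 and -0.0217, and between fos and CtBP at 0.184, -0.0778 and 0.193. For fos and CtBP the crossed pairs of replicates 1 and 3 were at -0.215 and -0.226. Not every library correlated best with its own number, and the numbers were not taken to pair the libraries. CG15353 passed the threshold in a fit of the compared groups alone (adjusted p = 0.0485) or of the 3 genotypes not used in the choice (0.0204), and CG4467 missed it in fos against CtBP without fos replicate 2 (adjusted p = 0.0563). The cause of these changes was not tested. Genes at under about 5 counts in a group, such as CG13840, CG15919 and CG34244 in CtBP scrib, have fold changes limited by depth.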

Other observations

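Of the 138 genes, 11 pairs that follow each other in order of position among the 138 lay within 20 kb of each other. On X, CG5937, CG5921 and CG4666 are next to each other in that order, other genes between them not counted, with gaps of 447 bp and 10426 bp, and had log2 fold changes of -1.94, -2.15 and -4.35 in CtBP scrib against CtBP (edgeR adjusted p = 3.96e-11, 3.65e-11 and 3.92e-10). Also on X, CG12531 and CG14234, 5371 bp apart, had -3.31 and -3.17. On 2R, CG5267 and CG42392, 9538 bp apart, had -1.81 and -2.63. These pairs were picked after their values were seen, and no comparison with other neighbouring genes was made.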
